A study of Mus musculus with 9 samples.

Results

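The genes described here encode the laminin chains, the subunits of the main cell-binding glycoprotein of basement membranes. All rows of the array table whose only gene symbol was Lama1, Lama2, Lama3, Lama4, Lama5, Lamb1, Lamb2, Lamb3, Lamc1 or Lamc3 were taken, which gave 10 genes of the 19938 measured, each with 1 row. Amplified cDNA of mouse bone marrow was hybridised to 9 Affymetrix Mouse Gene ST 1.0 arrays. 1 array held YFP-negative cells and 3 arrays held YFP-positive cells from mice of the genotype IL7-Cre Transgenic/Rosa-eYFP hetero. A further 3 arrays held cells of the same gate from wild type mice, and 2 arrays held total bone marrow cells of wild type mice, the control. All mice were C57Bl/6J young adults, and those used for sorting were 6 to 12 weeks old. All sorted cells lacked CD45 and lineage markers and carried CD54 and BP1, the products of Icam1 and Enpep. The YFP-negative sample came from 2300 cells, the other sorted samples from 1800 to 10000 cells each, and 10 ng of RNA was used for total marrow. In the reporter mice YFP marks cells in which Il7-driven Cre acts now or acted earlier, so it need not follow the present level of Il7. The labels do not say whether replicates came from separate animals, so that p-values measure only the spread between these samples, which may be technical.

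A laminin is a cross-shaped trimer of 1 alpha, 1 beta and 1 gamma chain, joined by a coiled coil inside the cell, and only the assembled trimer is secreted in quantity. The alpha chain ends in globular domains that bind integrins and dystroglycan on cells. The gamma1 chain binds nidogen, which ties the trimer to the collagen IV network. Trimers are named by their chain numbers, so that laminin 411 holds the chains encoded by Lama4, Lamb1 and Lamc1. Laminin 111 is the form of early embryos, 211 and 221 are known from muscle and nerve, and 411 and 511 from vessel walls and other mesenchymal and endothelial basement membranes. In bone marrow, laminins are known from the walls of sinusoids and from the reticular stroma.

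Values are log2 signals, so a difference of 1 is a doubling. The signal of different rows depends on their probes, so differences are taken only within a gene. Where rows of several genes are set against a shared cut, passing it also depends on the probes. The median of all values, 4.43 as deposited, is used as a stated cut and not as a measured detection limit. The YFP-negative array stood apart, with a median of 3.46 against 4.51 to 4.60 in the other 8 arrays. The cut of 4.43 includes this array and lies under the median of each of the other 8. Its values are therefore given after cyclic loess normalization of the 9 arrays, where the median of all values was 4.53, and all other values are given as deposited. The lowest array quality weight, 0.311, fell to YFP-positive replicate 3, and the other arrays had 0.613 to 1.69. The markers of the labelled cell type were present. All 10 reticular mesenchymal markers, among them Lepr, Cxcl12 and Kitl, stood above the cut in every sorted array, and 3 of the 10 did so in total marrow. As these are bulk samples, fewer cells of a type and less RNA per cell cannot be told apart.

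The sorted stroma carried the transcripts of an alpha4 and an alpha1 or alpha2 chain, both common beta chains and the gamma1 chain. Lamb1 encodes the beta1 chain of most laminins with a gamma1 chain. It stood at 8.77 on the YFP-negative array, at 8.74, 8.82 and 8.78 in YFP-positive cells and at 8.60, 8.94 and 9.03 in wild-type cells, against 3.96 and 3.84 in total marrow. Every YFP-positive and wild-type array was more than 4 log2 units above both arrays of total marrow, and both total marrow values lay under the cut. Lamc1 encodes gamma1, the chain that carries the high-affinity nidogen site. It stood at 8.70 on the YFP-negative array, at 9.14, 9.05 and 8.96 in YFP-positive and 9.12, 9.17 and 9.39 in wild-type cells, against 4.42 and 4.65 in total marrow. The 3 sorted groups lay far from total marrow and close to each other.

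Lamb2 encodes the beta2 chain, known from nerve-muscle junctions, kidney and vessel walls. It stood at 7.43 on the YFP-negative array, at 7.98, 7.62 and 7.23 in YFP-positive and 7.95, 7.92 and 8.27 in wild-type cells, against 4.99 and 4.98 in total marrow. It was the only gene of this family called higher in sorted cells whose level was above the cut on both total marrow arrays. Lama4 encodes alpha4, a chain with a shortened N-terminal arm. It stood at 8.81 on the YFP-negative array, at 8.12, 8.04 and 6.97 in YFP-positive and 7.74, 7.76 and 8.28 in wild-type cells, against 3.60 and 3.57 in total marrow. YFP-positive replicate 3 was the lowest of the sorted arrays here, and it still lay far above total marrow.

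The remaining alpha and beta genes lay nearer to the cut. Lama1 encodes alpha1, the chain of the embryonic laminin. It stood at 5.11 on the YFP-negative array, at 4.79, 5.49 and 5.26 in YFP-positive and 5.66, 5.80 and 6.18 in wild-type cells, against 4.04 and 4.21 in total marrow. All wild-type values lay above all YFP-positive ones, and all sorted values above the cut. Lama2 encodes alpha2, the chain lost in a congenital muscular dystrophy. It stood at 5.66 on the YFP-negative array, at 5.37, 5.55 and 4.45 in YFP-positive and 4.96, 4.58 and 5.03 in wild-type cells, against 3.63 and 3.39 in total marrow. YFP-positive replicate 3 was again the lowest of the sorted arrays and just passed the cut.

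Lama3, which encodes the epithelial alpha3 chain, lay around or under the cut in every array. It stood at 3.86 on the YFP-negative array, at 4.34, 4.39 and 4.53 in YFP-positive and 4.41, 4.67 and 4.18 in wild-type cells, against 3.62 and 3.64 in total marrow. Lama5 encodes alpha5, the chain of laminin 511. It stood at 4.38 on the YFP-negative array, at 4.59, 4.28 and 4.59 in YFP-positive and 4.14, 4.05 and 4.04 in wild-type cells, against 3.73 and 3.87 in total marrow. The sorted groups did not overlap total marrow for either gene, but their values straddled the cut or lay under it.

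Lamb3 encodes beta3, a partner of alpha3 in epithelia. It ranged from 3.78 to 4.16 in YFP-positive and from 3.58 to 3.75 in wild-type cells and was 3.86 on the YFP-negative array, against 3.56 and 3.61 in total marrow. No array passed the cut. Lamc3 encodes gamma3. It ranged from 4.60 to 5.02 in YFP-positive and from 4.47 to 4.59 in wild-type cells and was 4.83 on the YFP-negative array, against 4.53 and 4.62 in total marrow. Its values passed the cut in all groups and overlapped between both replicated sorted groups and total marrow.

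**Figure D1:**
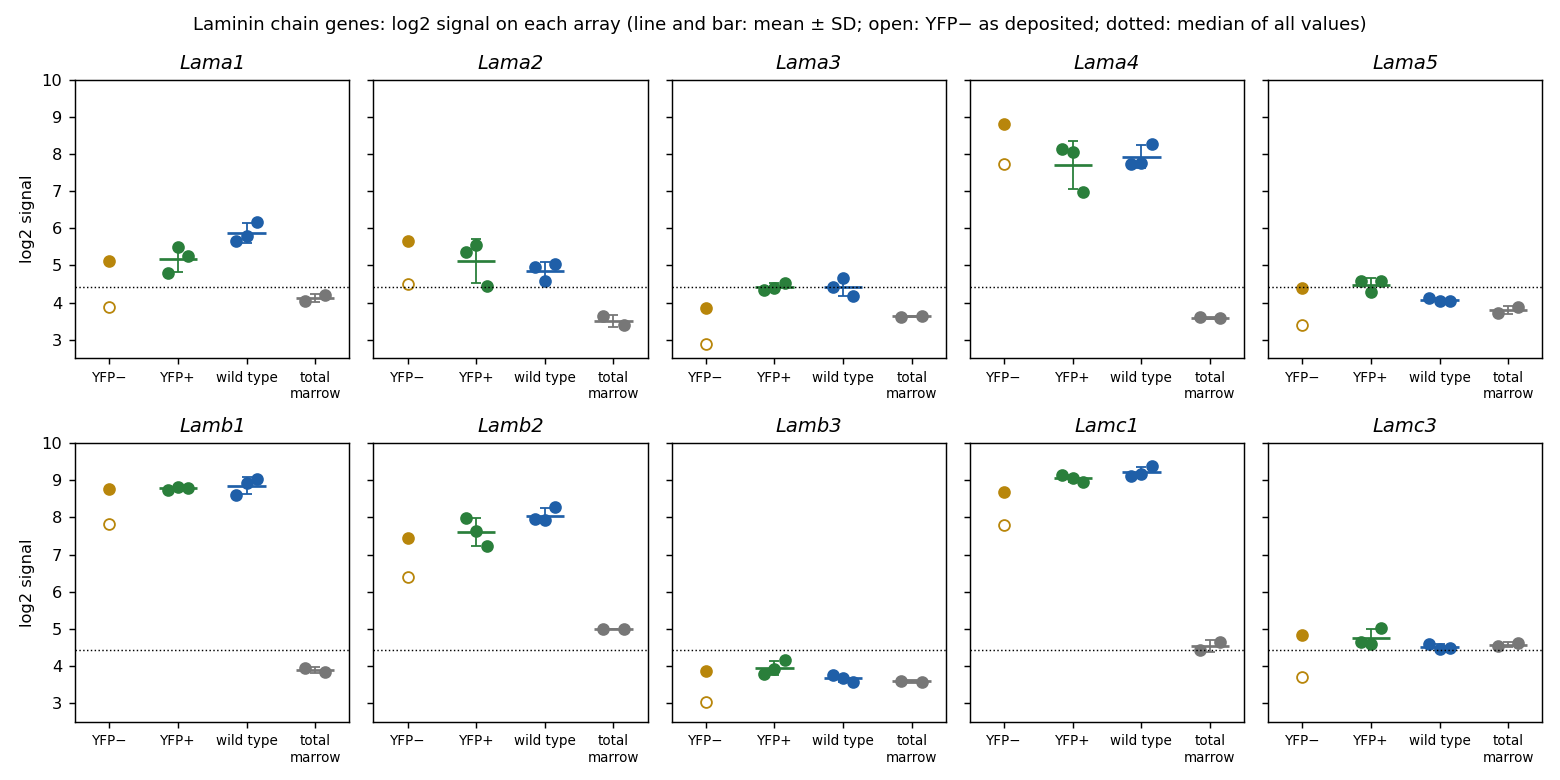
Log2 signal (vertical axis) of the 10 laminin chain genes on each array, by group (horizontal axis), with the mean ± SD of the replicated groups as line and bar. The YFP− array is shown after cyclic loess (filled) and as deposited (open), the dotted line is the median of all deposited values, 4.43, and Lama4, Lamb1, Lamb2 and Lamc1 lie far above total marrow in all sorted arrays.

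The sequences before the start sites of Lamb1, Lamb2 and Lama2 are shown because these genes were called higher in every sorted group. That of Lama5 is shown because its signal stayed near the cut. Start sites for 5 of the 10 genes were kept from RefSeq's table for GRCm38.p6, and any on the chromosome of Lama3 were left out. Each line gives the 250 bases before one of the start sites kept, 5′ to 3′. Capitals mark the GC box GGGCGG or its reverse complement CCGCCC.
Lamb1, chr12:31265043-31265292, plus strand: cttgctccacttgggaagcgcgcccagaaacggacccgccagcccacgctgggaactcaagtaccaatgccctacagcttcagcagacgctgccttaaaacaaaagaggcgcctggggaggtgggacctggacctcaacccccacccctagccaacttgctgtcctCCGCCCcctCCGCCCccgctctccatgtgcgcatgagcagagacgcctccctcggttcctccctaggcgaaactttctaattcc
Lamb2, chr9:108479612-108479861, plus strand: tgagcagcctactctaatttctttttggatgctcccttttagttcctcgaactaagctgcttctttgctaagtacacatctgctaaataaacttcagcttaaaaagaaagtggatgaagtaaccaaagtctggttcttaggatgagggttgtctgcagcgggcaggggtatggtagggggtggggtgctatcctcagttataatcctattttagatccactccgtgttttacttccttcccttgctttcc
Lama2, chr10:27616943-27617192, minus strand: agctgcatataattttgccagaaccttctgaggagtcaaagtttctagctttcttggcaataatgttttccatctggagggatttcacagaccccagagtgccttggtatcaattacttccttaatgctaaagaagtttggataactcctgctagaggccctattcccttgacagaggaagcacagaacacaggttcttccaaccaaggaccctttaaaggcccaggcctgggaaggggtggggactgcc
Lama5, chr2:180225860-180226109, minus strand: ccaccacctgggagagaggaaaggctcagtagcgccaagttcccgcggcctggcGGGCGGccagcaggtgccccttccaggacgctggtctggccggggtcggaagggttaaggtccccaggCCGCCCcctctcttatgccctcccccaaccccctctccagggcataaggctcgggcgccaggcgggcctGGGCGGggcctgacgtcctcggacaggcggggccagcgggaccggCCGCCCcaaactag
The Lamb1 window held 2 GC boxes, which do not overlap, within the 84 bases before the start, and 62.0% of its bases were G or C. The Lama5 window held 4 GC boxes with a G and C content of 72.4%, the Lamb2 window held 0 with 43.6%, and the Lama2 window 0 with 47.2%. A GC box on either strand occurred in 32.7% of the 32851 windows in the table. The TATA box TATAAA or its reverse complement occurred in 12.4% of them. None of the 4 windows held it, which says only that these letters are not there. The beta chain genes Lamb1 and Lamb2 differed in base composition and in GC boxes at their starts. The windows of Lamb3, a beta chain gene under the cut in every array, are not shown. They held 0 GC boxes, with a G and C content of 58.8% and 61.2%.

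The first comparison asked which laminin chains set YFP-positive stroma apart from marrow as a whole. In YFP-positive cells 8 of the 10 chains were called higher and 0 lower (limma, adjusted p under 0.05), where 29.5% of all 21789 rows were called, 11% higher and 18.5% lower. The median difference over the 10 chains was 1.33, against 0.09 over all rows. The difference was 4.88 ± 0.15 on the log2 scale for Lamb1 (SE, n = 3 and 2, limma adjusted p = 3.58e-07) and 4.51 ± 0.14 for Lamc1 (SE, adjusted p = 3.49e-07). Lama4 was higher by 4.12 ± 0.35 and Lamb2 by 2.62 ± 0.22 (SE), that is 6.17-fold for Lamb2. Smaller differences were called for Lama2 (1.61 ± 0.32), Lama1 (1.05 ± 0.23), Lama3 (0.79 ± 0.16) and Lama5 (0.68 ± 0.13). Lamb3 (0.37, adjusted p = 0.0900) and Lamc3 (0.18, adjusted p = 0.392) were not called. Without either array of total marrow 5 chains were called, the lost calls being among the 4 chains with the smaller differences. Without replicate 1 of total marrow the adjusted p was 0.0959 for Lama1, 0.0613 for Lama3 and 0.0676 for Lama5, and without replicate 2 it was 0.0545 for Lama1, 0.0613 for Lama2 and 0.0505 for Lama3.

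Wild-type cells of the gate were set against the same 2 arrays of total marrow. They had 7 of the 10 chains called higher and 0 lower, where 24.3% of all rows were called, 10.4% higher and 13.9% lower. The median difference was 1.55 over the chains and 8.6e-05 over all rows. Lamb1 was higher by 4.96 ± 0.15 (SE, n = 3 and 2, limma adjusted p = 2.95e-07), Lamc1 by 4.69 ± 0.14, Lama4 by 4.34 ± 0.35 and Lamb2 by 3.06 ± 0.22. Lama1 was higher by 1.75 ± 0.23, Lama2 by 1.34 ± 0.32 and Lama3 by 0.79 ± 0.16. Lama5 (0.27, adjusted p = 0.212), Lamb3 (0.08) and Lamc3 (−0.06) were not called. The call of Lama2 was lost when wild-type replicate 1 (adjusted p = 0.0581) or 3 (0.0592) was left out, and likewise for total marrow replicate 1 (0.0785) or 2 (0.127). The Lama3 call ended without total marrow replicate 1 (0.0652) or 2 (0.0562). In every alternative run, the calls of Lama4, Lamb1, Lamb2 and Lamc1 were kept against total marrow for YFP-positive, wild-type and YFP-negative cells alike.

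**Figure D2:**
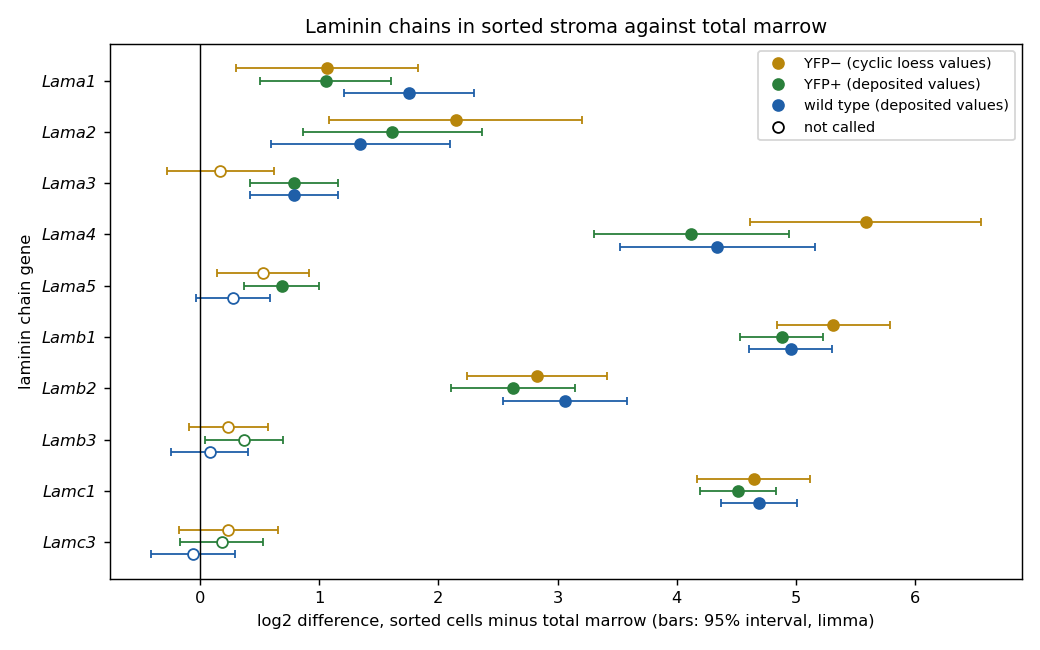
Log2 difference of each laminin chain between sorted cells and total marrow (horizontal axis, points) with its 95% interval from limma (bars), for YFP−, YFP+ and wild-type cells. Open points were not called, and Lama4, Lamb1, Lamb2 and Lamc1 lie at 2.62 or above in all 3 groups.

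Cells of other types could carry laminin chains into the gate, and their markers were read beside these results. Among 16 endothelial markers 2 stood above the cut in every array of the YFP-positive and of the wild-type cells. They were endoglin (Eng), which was called higher in both (1.05 and 1.51) and is also known from stroma, and Vwf, which was not called. A further 4 endothelial markers were called lower in each group. Of all rows 11% were called higher and 18.5% lower in YFP-positive cells, and 10.4% and 13.9% in wild-type cells. These shares stand beside the counts of each marker list here. The other endothelial markers, among them Cdh5, Kdr, Tek and Tie1, lay under the cut in all sorted arrays except for Stab2 and Egfl7, which passed it in some YFP-positive arrays. The mean over the endothelial list was 3.95 to 4.08 in YFP-positive and 3.86 to 3.97 in wild-type cells, against 4.18 to 4.21 in total marrow, and 4.06 on the YFP-negative array. Smooth muscle and pericyte markers averaged 5.02 to 5.46 in YFP-positive and 5.34 to 5.49 in wild-type cells, against 4.29 to 4.33 in total marrow, with 4 of 12 called higher in each, 1 lower in YFP-positive and 0 lower in wild-type cells, against 11% and 10.4% of all rows called higher. Their part in the result was not tested. Of 9 epithelial markers 1 stood above the cut in every sorted array, Krt8, which was called higher by 0.90 for YFP-positive cells and by 0.71 for wild-type cells, and 2 were called lower in each. Of 6 measured Schwann cell markers S100b and Ngfr stood above the cut in every sorted array. S100b, a calcium-binding protein, was at 8.61 to 9.13 in YFP-positive and 8.65 to 8.94 in wild-type cells, against 3.30 to 3.36 in total marrow, while Sox10, Mbp, Gfap and Cdh19 were not called higher. The Schwann cell list averaged 4.73 to 5.07 in YFP-positive and 4.68 to 4.79 in wild-type cells, against 3.85 to 3.93 in total marrow, and its part in the result was not tested. Of 5 megakaryocyte markers 4 were called lower in both sorted groups. All 11 measured leucocyte and erythroid markers were lower in both sorted groups than in total marrow. Of these 2, Camp and Cd3e, still stood above the cut in every YFP-positive and wild-type array. Single arrays were higher for some, with Lyz2 at 8.34 and Camp at 7.49 in YFP-positive replicate 1 and Car1 at 7.88 in wild-type replicate 3. The part of such cells in the result was not tested.

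Which trimers the stroma could assemble was read from the chains present as transcripts, over 13 chain combinations known in vertebrates. A chain was counted as present in a group when its row stood above the median of all values in every array of the group. This is easier to pass with the 1 YFP-negative array or the 2 of total marrow than with 3 arrays. Counts are therefore not strictly alike between groups. The YFP-negative array was read after cyclic loess and the other groups as deposited, each against the median of its scale. By this rule 7 of the 10 chains were present in YFP-negative, YFP-positive and wild-type cells each, namely Lama1, Lama2, Lama4, Lamb1, Lamb2, Lamc1 and Lamc3. In total marrow 2 were present, Lamb2 and Lamc3, and no alpha chain. The share of all rows that passed this rule was not counted. As the cut is the median of all values, many rows of any kind pass it, so the counts have no baseline. All chains were present for 8 of the 13 combinations in each of the 3 sorted groups, against 0 in total marrow. They were laminins 111, 121, 211, 221, 213, 411, 421 and 423. Laminins 311, 321, 511, 521 and 523 lacked their alpha chain by this rule in all 3 sorted groups, while their beta and gamma chains were present. The rule did not follow the comparisons with total marrow. Lama3, which failed it, was called higher in YFP-positive (0.79) and wild-type cells (0.79), and Lama5 in YFP-positive cells (0.68). Lamc3, which passed it, was called in neither (0.18 and −0.06).

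The result turned on the cut. With the 75th percentile of all values as the cut, Lama4, Lamb1, Lamb2 and Lamc1 were left in each sorted group, which gave 2 trimers, 411 and 421, in each. With the 25th percentile all 10 chains passed in every group, total marrow included, and all 13 combinations were covered in each. Laminins 213 and 423 rest on Lamc3, whose level did not differ detectably from total marrow, and Lama2 passed in YFP-positive replicate 3 at 4.45 against a cut of 4.43. Some of these values lay under the median of their own array. Lamc3 was at percentile 48.8 and 49.5 in wild-type replicates 2 and 3 and 49.6 in total marrow replicate 1. Lama2 was at percentile 46.9 in YFP-positive replicate 3. After cyclic loess or quantile normalization of all arrays the count in YFP-positive cells was 5. After cyclic loess Lamc3 stood at 4.44 and 4.52 in wild-type replicates 2 and 3, under the cut of 4.53 on that scale. Laminins 213 and 423 were then not covered in wild-type cells, so the equal counts of the sorted groups depend on the scale. Without YFP-positive replicate 2 it was 11, as Lama5 passed the cut in the other 2 arrays, and laminins 511, 521 and 523 were then covered. With the YFP-negative array as deposited its count was 4. Transcripts do not show that a chain was made or that a trimer was secreted.

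**Figure D3:**
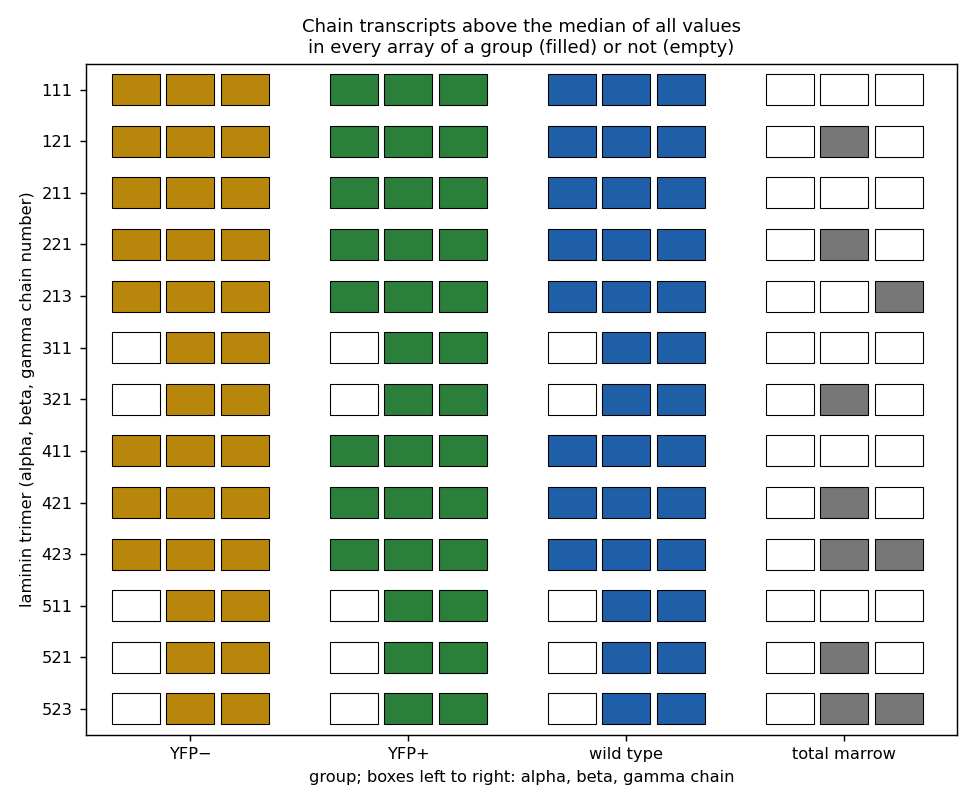
Presence of the alpha, beta and gamma chain transcripts (boxes, left to right) of 13 laminin trimers (rows) in 4 groups (columns), a box being filled where the row stood above the median of all values in every array of the group. All boxes are filled for 8 trimers in each of the sorted groups and for 0 in total marrow, with YFP− read after cyclic loess and the others as deposited. The share of all rows passing this rule was not counted.

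Whether reporter-marked cells differ in laminins from the whole gate was asked by setting YFP-positive against wild-type cells. Genotype differs along with the reporter. No chain was called (0 of 10, limma, where 0% of all rows were called), and 2 chains, Lama1 and Lama5, had an unadjusted p under 0.05, as had 3250 of the 21789 rows. The mean of Lama1 was 5.18 ± 0.36 for YFP-positive cells and 5.88 ± 0.27 for wild-type cells (SD, n = 3 each), a difference of −0.70 with a 95% interval of −1.19 to −0.21 and an adjusted p of 0.264. That of Lama5 was 4.49 ± 0.17 for YFP-positive cells and 4.08 ± 0.05 for wild-type cells (SD, n = 3 each), a difference of 0.41 (95% interval 0.13 to 0.69, limma adjusted p = 0.262). The 2 groups did not overlap for 4 of the 10 chains, these and Lamb3 and Lamc3, where 21.8% of all rows did not overlap, and the Lamc3 groups nearly touched. Both differences kept their direction in all alternatives run, and neither was called in any of them.

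For the 4 chains called against total marrow in every alternative, the intervals bound the difference between YFP-positive and wild-type cells. Lamb1 differed by −0.07 (95% interval −0.38 to 0.24), Lamc1 by −0.17 (−0.46 to 0.11), Lamb2 by −0.44 (−0.90 to 0.02) and Lama4 by −0.22 (−0.95 to 0.52). A doubling or halving lay outside all of these intervals, since none reached 1 log2 unit. The Lama4 difference depended on YFP-positive replicate 3, without which it was 0.16. Lama2 differed by 0.27 (−0.40 to 0.94), and by 0.61 without that array.

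The YFP-negative array was compared with the other sorted groups to ask whether laminins follow the reporter inside the gate. As this group has a single array, the fit lends it the spread of the other groups, and anything peculiar to that hybridisation cannot be told apart from the YFP-negative state. Against YFP-positive cells no chain was called on cyclic loess values (0 of 10, limma, where 3.98% of all rows were called, 2.62% higher and 1.36% lower). An unadjusted p under 0.05 was found for 2 chains, Lama4 and Lama3, and for 4773 of the 21789 rows. Against wild-type cells the result was also 0 of 10, where 4.56% of all rows were called, 3% higher and 1.57% lower. Lama4 and Lama3 again had an unadjusted p under 0.05, as had 4865 of all rows. Lama4 stood at 8.81 on the YFP-negative array, against 7.98, 7.94 and 7.05 in YFP-positive and 7.52, 7.41 and 8.02 in wild-type cells on the same scale. On that scale the YFP-negative value was the highest of the sorted arrays, and the differences were 1.16 ± 0.39 (SE, adjusted p = 0.143) and 1.16 ± 0.39 (SE, adjusted p = 0.139). As deposited the YFP-negative array stood at 7.74, with differences of 0.03 from YFP-positive and −0.19 from wild-type cells, neither called. The Lama4 difference from wild type was called on cyclic loess values with array weights (adjusted p = 0.0441) and without YFP-positive replicate 3 (adjusted p = 0.0389).

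Lama3 differed by −0.49 from YFP-positive (adjusted p = 0.173) and by −0.59 from wild-type cells (adjusted p = 0.111), not called, with all values under or near the cut. Lamb1 differed by 0.04 (95% interval −0.41 to 0.48) from YFP-positive and by 0.22 (−0.23 to 0.67) from wild type, and Lamc1 by −0.31 (−0.76 to 0.13) and −0.22 (−0.66 to 0.23). As deposited, 8 of the 10 chains were called lower on the YFP-negative array against YFP-positive and 8 against wild type. Of all 21789 rows, 16522 and 16353 were called in these comparisons. On that scale the median of all rows differed by −0.91 and −0.88. Against total marrow the YFP-negative array had 6 chains called higher and 0 lower on cyclic loess values, where 26.2% of all rows were called, 13% higher and 13.2% lower. These were Lama4 (5.58), Lamb1 (5.31), Lamc1 (4.65), Lamb2 (2.83), Lama2 (2.14) and Lama1 (1.07, adjusted p = 0.0496). The Lama1 call ended under 9 of 16 alternatives, and as deposited the difference was −0.26. The Lama2 call ended as deposited, where the difference was 0.98 (adjusted p = 0.0708). Lama5 (0.53, adjusted p = 0.0529) was not called, and it was called under 5 of the alternatives. On cyclic loess values the endothelial gene Vwf was higher on the YFP-negative array than in wild-type cells (0.82, limma adjusted p = 0.0320) and total marrow (0.70, limma adjusted p = 0.0147). As deposited Vwf stood at 4.27 on this array, under all wild-type (4.58 to 4.88) and total marrow values (4.75 and 4.83). After cyclic loess 14 of the 16 endothelial markers lay under the cut on this array, and their part in the result was not tested.

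Laminin receptors also differed between the stroma and total marrow. Of 11 measured receptor genes YFP-positive cells had 5 higher and 1 lower, where 11% of all rows were called higher and 18.5% lower. The same counts, 5 and 1, held for wild-type cells, where 10.4% and 13.9% of all rows were called. Dag1, which encodes dystroglycan, a receptor for the globular domains of alpha chains, stood at 8.90, 9.06 and 8.58 in YFP-positive and 9.11, 9.12 and 9.45 in wild-type cells, against 5.60 and 5.63 in total marrow. The difference was 3.23 ± 0.18 for YFP-positive cells and 3.62 ± 0.18 for wild-type cells (SE). Itga1, whose integrin binds collagen IV and laminin, was higher by 3.74 and 3.99, and its partner Itgb1 by 1.77 and 2.06. Itga3, of an integrin that binds laminin 511, was higher by 0.84 and 1.38, and Bcam, a receptor for alpha5, by 0.91 and 1.25. Without total marrow replicate 1 the YFP-positive calls of Itga3 (adjusted p = 0.0920) and Bcam (0.162) and the wild-type call of Bcam (0.0623) ended. The YFP-positive calls also ended without total marrow replicate 2 (0.104 for Itga3 and 0.0546 for Bcam), and that of Bcam without YFP-positive replicate 1 (0.0513). Itga6, of the integrin that binds most laminins, differed by −1.02 for YFP-positive cells and −1.19 for wild-type cells, a lower level that lay under the cut in all sorted arrays. Itga7, Itgb4, Itga2 and Mcam were not called.

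Of 18 measured partners of laminin in the basement membrane, YFP-positive cells had 11 higher and 0 lower, where 11% of all rows were called higher, and wild-type cells likewise, where 10.4% were. Nid1 and Nid2 encode nidogens, which tie the gamma1 chain to collagen IV. Their differences were 5.13 (Nid1) and 4.04 (Nid2) for YFP-positive cells and 5.20 and 4.50 for wild-type cells. Col4a1 of collagen IV was higher by 2.97 and 3.40, while Col4a3, Col4a4, Col4a5 and Col4a6 were not called. Smoc1 (4.12 and 4.45), Fbln1 (3.93 and 3.94) and Sparc (3.40 and 3.71), which encode matrix glycoproteins, completed the largest differences.

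Enzymes that build the laminin-binding sugar of dystroglycan were called higher in 5 of 9 measured genes in each group, and 0 were lower. B4gat1, which primes that sugar chain, was higher by 2.0 in both YFP-positive and wild-type cells. Pomt2 (0.86 and 1.66), Pomgnt1 (0.70 and 1.07) and Pomgnt2 (0.67 and 0.75) act earlier on the pathway. Rxylt1 was called only in the wild-type comparison (1.94, adjusted p = 0.0263, against 1.34 with an adjusted p of 0.0867 in YFP-positive cells), and the 2 groups did not differ by a call (−0.61, adjusted p = 0.502). Large2 was called in YFP-positive cells (0.44). The YFP-positive calls of Large2, Pomt2 and Pomgnt2 ended under 11, 10 and 5 alternatives, and the wild-type calls of Rxylt1 and Pomgnt2 under 5 and 4. Of 5 measured netrins, relatives of the laminin short arms, 1 was called higher in each group, Ntn5 (0.45) in YFP-positive and Ntn3 (0.47) in wild-type cells, calls that ended under 9 and 6 alternatives. The share of all rows called higher was 11% and 10.4%.

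**Figure D4:**
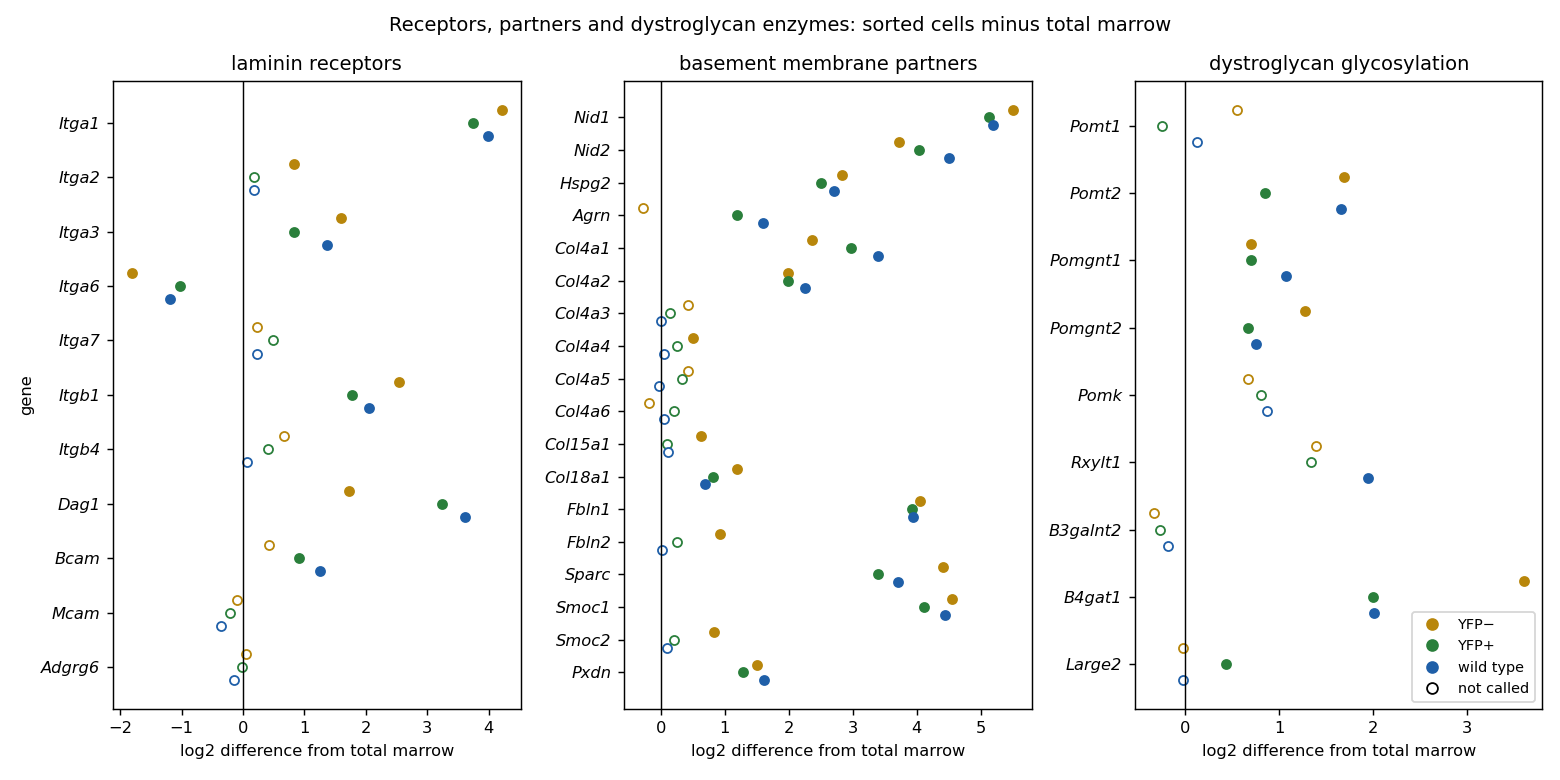
Log2 difference from total marrow (horizontal axis) of laminin receptors, basement membrane partners and enzymes of dystroglycan glycosylation (rows) in YFP− (cyclic loess values), YFP+ and wild-type cells (deposited values). Open points were not called, and Dag1, Itga1, Nid1, Nid2 and B4gat1 lie to the right of 0 while Itga6 lies to the left in all 3 groups.

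Between the YFP-negative array and the other sorted groups, receptor and partner genes were called where no laminin chain was. Dag1 stood at 6.85 on the YFP-negative array, against 8.74, 8.97 and 8.70 in YFP-positive and 8.85, 8.71 and 9.19 in wild-type cells on cyclic loess values. It lay below all 6 arrays and was lower by 1.95 ± 0.21 than in YFP-positive (SE, limma adjusted p = 0.00928) and by 2.07 ± 0.21 than in wild-type cells (SE, limma adjusted p = 0.0106). Agrn encodes agrin, a proteoglycan that binds the laminin coiled coil and dystroglycan. It stood at 4.20 on the YFP-negative array, against 5.56 to 5.91 in YFP-positive and 5.96 to 6.22 in wild-type cells. It was lower by 1.59 (adjusted p = 0.0191) and by 1.88 (adjusted p = 0.0143). Each of these calls was kept in 15 of 16 alternatives and ended in 1, the replicate number as a block.

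Other genes of the lists went both ways on the YFP-negative array. Ntn1, which encodes netrin 1, was higher by 1.01 than in YFP-positive and by 1.13 than in wild-type cells, Fbln2 by 0.80 and 0.94, and Smoc2 by 0.76 and 0.75. Col15a1 was called higher against YFP-positive cells (0.63). Col4a1 (−1.14) and Nid2 (−0.90) were called lower and B4gat1 (1.52) higher against wild-type cells. As deposited, Ntn1 differed by −0.13 from YFP-positive and by 0.06 from wild-type cells, and Fbln2, Smoc2 and Col15a1 also changed sign on that scale in at least 1 comparison. Col4a1 and Nid2 were called lower than in wild-type cells under all 4 scalings. Leaving out arrays and the other alternatives ended calls often. Against wild type the Col4a1 call ended under 5 of 16 alternatives, that of Nid2 under 10 and that of B4gat1 under 11. Against YFP-positive cells the Col15a1 call was lost or reversed under 11 of 15 and that of Fbln2 under 8 of 15.

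**Figure D5:**
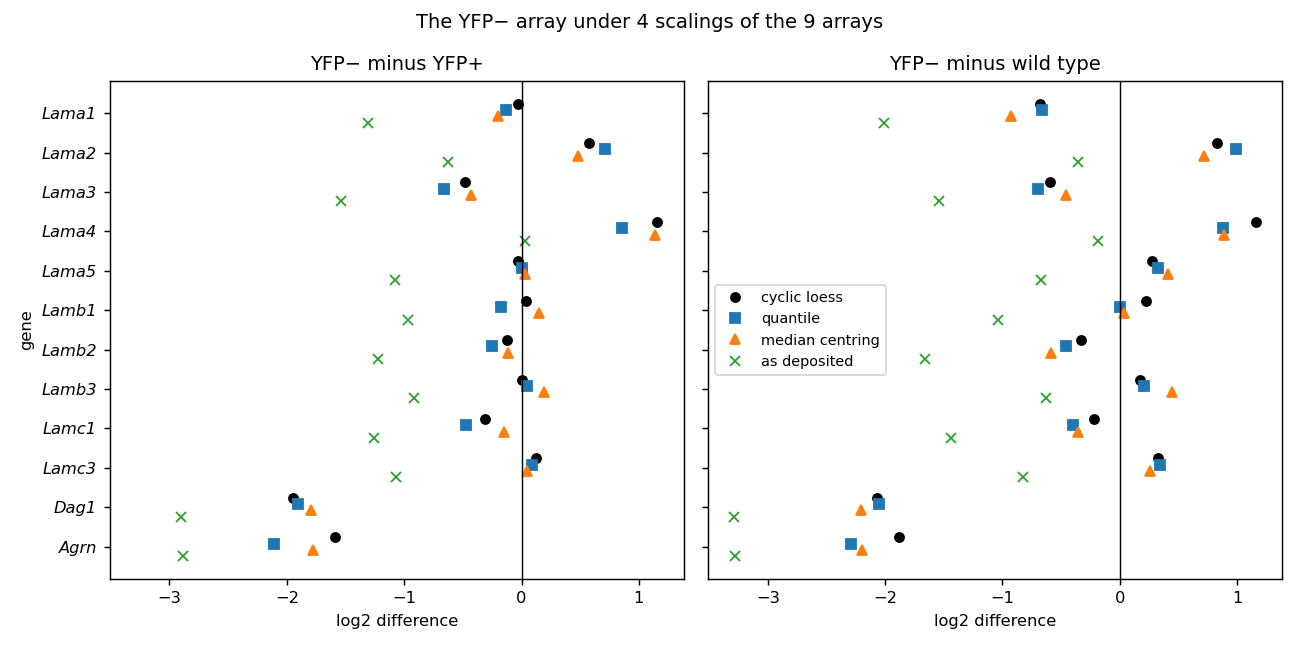
Log2 difference of the YFP− array from YFP+ (left) and wild-type cells (right) for the laminin chains, Dag1 and Agrn (rows) under 4 scalings of the arrays (symbols). Dag1 and Agrn lie below −1.5 under each scaling, while the chains lie on both sides of 0 under 3 scalings and nearly all below 0 as deposited.

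The genes with the most similar profile were sought over the 9 arrays, by the root mean square difference of mean-centred cyclic loess values among 18277 genes. Nearest to Lamb1 were Neo1 (0.16 log2 units), Tgfbr3 (0.18) and Tmem176a (0.19), to Lamc1 Plxna2 (0.18), Olfml2a (0.19) and Apbb2 (0.19), and to Lamb2 Shroom3 (0.16), Dcbld2 (0.17) and St3gal6 (0.20). Nearest to Lama4 were Slc5a3 (0.25), Fkbp14 (0.26) and Adgrl2 (0.27), to Lama1 Col1a1 (0.16), Abhd12 (0.17) and Thbs3 (0.18), and to Lama2 Vwa5a (0.23), Kctd12b (0.24) and Hdgfl3 (0.24). No laminin chain was among the 3 nearest genes of another. All these profiles share the step between sorted cells and total marrow, and likeness over 9 arrays is a description only.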

How the data were processed

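Amplification used the NuGEN Ovation Pico WTA kit, per the labels. Per the submitters' processing notes, Affymetrix Expression Console 1.3.1 and RMA were used, and the deposited values are log2 signals made by the authors, 1 per transcript cluster and array. Whether all arrays were summarised together, the genome build and the annotation are not given in the sources used here. Of 35556 rows, the 21789 with exactly 1 gene symbol in the platform annotation were tested (1621 rows with several genes and 12146 with none were left out). Of their Entrez identifiers 21698 matched the RefSeq table of GRCm38.p6. For genes with several rows, the row with the highest mean was used.

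All 9 arrays entered 1 limma fit (limma 3.58.1, R 4.3.3) with a mean per group, 5 residual degrees of freedom, two-sided tests and Benjamini-Hochberg adjustment over all rows tested. Calls needed an adjusted p under 0.05. Comparisons with the YFP-negative array used cyclic loess values, the others the deposited values. The fit was tested on simulated data. The number of arrays limits the precision. Alternatives were other normalizations, a filter on dim rows, all rows, trended moderation, array weights, the replicate number as a block and leaving out each array. Named genes were all measured chains, up to 6 called members of each list and comparison by size, up to 4 not called, and the 3 most similar genes of a chain, of which those of Lama3 and Lama5, near the cut, are not given. The marker genes, Rxylt1 and Ntn1 values outside that rule were chosen after they were seen. The genes, lists, comparisons and scaling were chosen with earlier results of these data known.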

Additional observations from a re-analysis of the deposited data

How the results depend on the processing

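Over 978 recomputed chain differences, 897 kept direction and side of the threshold. With the direction kept, 21 lost their call and 19 gained one. A further 41 changed sign, and 31 of these were not called in the alternative. Among the 31 was Lama1 of the YFP-negative array against total marrow, which was called as reported (1.07). With the YFP-negative array as deposited, 16522 rows and 8 chains were called against YFP-positive, 16353 and 8 against wild type and 15666 rows against total marrow, and 4 trimers were covered. All these counts differ from those on cyclic loess values. Why the values of this array were lower as deposited was not tested. Signs turned on that scale against YFP-positive for Lama2 (−0.63), Lamb1 (−0.97), Lamb3 (−0.92), Lamc3 (−1.07), Fbln2 (−0.26), Smoc2 (−0.21), Col15a1 (−0.49) and Ntn1 (−0.13). Against wild type they turned for Lama2 (−0.36), Lama4 (−0.19), Lama5 (−0.67), Lamb1 (−1.04), Lamb3 (−0.63), Lamc3 (−0.82), Fbln2 (−0.019) and Smoc2 (−0.10). Against total marrow they turned for Lama1 (−0.26), Lama3 (−0.75), Lama5 (−0.40), Lamb3 (−0.55), Lamc3 (−0.88), Ntn3 (−0.23), Pomgnt1 (−0.61) and Pomgnt2 (−0.18).

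For the changes that follow, the cause was likewise not tested. Between YFP-positive and wild type, cyclic loess gave Lama4 at 0.0076, Lamb1 at 0.18 and Lamc1 at 0.095, quantile normalization 0.023, 0.18 and 0.080, and array weights Lama4 at 0.010. Rows called there were 1 over all rows of the file and 9 with trended moderation, and no chain. For YFP-negative against YFP-positive and wild type, rows called were 1683 and 1720 after quantile normalization, 2512 and 4458 after median centring (8987 against total marrow), and 479 and 488 with the filter on dim rows, which tests fewer rows. Array weights called 2091 rows and 1 chain (Lama4) against wild type, and quantile normalization 1 chain there (Lama3). The replicate block left 5 and 6 rows of 867 and 994, gave Lama1 at 0.24 against YFP-positive, and changed no chain's call, while Dag1 (adjusted p = 0.0708 and 0.0759) and Agrn (0.0866 and 0.0759) lost theirs. Same-numbered YFP-positive and wild-type arrays did not deviate together (r = −0.06, −0.03 and −0.01). This cannot show whether the numbers pair the samples, since a small shared effect could leave r near these values. After quantile normalization Lama5 was 0.0039 and Lamb1 −0.18 against YFP-positive and Lamb1 −0.00030 against wild type, and after median centring Lama5 was 0.030 against YFP-positive. Cuts at the 75th percentile gave 2 trimers in each sorted group and 0 in total marrow, and at the 25th 13 in each group. Cyclic loess and quantile normalization gave 5 in YFP-positive cells. After cyclic loess Lamc3 no longer passed the cut in all wild-type arrays.

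Leaving out 1 array gave 3636 to 6622 rows and 5 to 9 chains for YFP-positive against total marrow, and 3398 to 5980 rows and 5 to 7 chains for wild type. It gave 0 to 26 rows and 0 chains between them, 236 to 1231 rows and 0 chains for YFP-negative against YFP-positive, and 183 to 1763 rows and 0 to 1 chains against wild type. With no YFP-positive replicate 1 the 26 rows were called, and without either total marrow array 5 chains. Differences that changed sign this way ranged, for YFP-positive against wild type, from −0.12 to 0.12 (Lama3), −0.42 to 0.16 (Lama4) and −0.20 to 0.013 (Lamb1). For YFP-negative against YFP-positive they ranged from −0.22 to 0.12 (Lama1), −0.12 to 0.039 (Lama5), −0.027 to 0.14 (Lamb1), −0.23 to 0.036 (Lamb2) and −0.045 to 0.058 (Lamb3). No chain had a second row to try. Signals near the median of all values limit what Lama3, Lama5, Lamb3 and Lamc3 can show.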
